A study of Mus musculus with 77 samples.

Results

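Direct pathway spiny projection neurons (dSPN) of the striatum were compared between dopamine-depleted mice on a low levodopa regimen and mice with an intact dopamine supply. The arrays were chosen by their source labels alone: 12 from lesioned low-dose mice and 10 from mock-lesioned mice on saline, 22 of the 77 arrays of the series. The question the design poses is how far a regimen set to relieve limb asymmetry without conspicuous dyskinesia brings dSPN expression back to the unlesioned level. Each array held ribosome-bound messenger RNA from the dorsal striatum of 1 mouse, purified through an EGFP-tagged ribosomal protein (translating ribosome affinity purification, TRAP).

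All mice of both groups were adult C57BL/6J males of 9 to 14 weeks carrying the Drd1::EGFP-L10a BAC transgene of line CP73. The tag is therefore present wherever this Drd1 transgene is active, and the purified RNA is a bulk sample of those cells. In the low-dose group 1 µl of the toxin 6-hydroxydopamine (6-OHDA, 3.2 µg/µl) was injected into the medial forebrain bundle of the right side. Animals with a successful lesion were chosen by turning and limb use. From 3 weeks after surgery they received levodopa daily, 1 mg/kg up to day 3 and 2 mg/kg from day 4 to day 9, together with 12 mg/kg benserazide, an inhibitor of its conversion outside the brain. The mock group received ascorbate and saline in place of the toxin and then daily saline. Mice were killed directly after the last behavioural session, and the sources used here do not give the interval from the last injection. The difference between the groups therefore combines the lesion, chronic levodopa and the recent dose. Beside these groups, values are given for dSPN of 11 lesioned mice on saline and of 11 lesioned mice on a high dose (3 mg/kg, then 6 mg/kg). Arrays from indirect pathway neurons (iSPN, Drd2::EGFP-L10a, line CP101) of 8 low-dose and 10 mock mice are also used.

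dSPN carry the D1 dopamine receptor, which raises cyclic AMP and, through protein kinase A, the factor CREB and the MAP kinase ERK, switches on immediate early genes. After dopamine loss this receptor pathway becomes hypersensitive, so that levodopa elicits strong responses in these cells. Immediate early genes encode transcription factors and synaptic proteins made within minutes to hours of a stimulus, and many carry cyclic AMP response elements (CRE) in their promoters.

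The promoters of 5 named genes that hold the full CRE palindrome TGACGTCA are shown because this element is the textbook landing site of CREB. Sequences are from RefSeq (GRCm38.p6), the 250 bases before the gene start, 5′ to 3′ on the gene's strand, with the palindrome in capitals. Sstr2 (chr11:113619077-113619326, plus strand), Tinf2 (chr14:55681818-55682067, minus strand), Pcsk1 (chr13:75089607-75089856, plus strand) and Th (chr7:142899996-142900245, minus strand) were higher under the low dose than in mock mice. Gpr6 (chr10:41072291-41072540, minus strand) was lower.
Sstr2: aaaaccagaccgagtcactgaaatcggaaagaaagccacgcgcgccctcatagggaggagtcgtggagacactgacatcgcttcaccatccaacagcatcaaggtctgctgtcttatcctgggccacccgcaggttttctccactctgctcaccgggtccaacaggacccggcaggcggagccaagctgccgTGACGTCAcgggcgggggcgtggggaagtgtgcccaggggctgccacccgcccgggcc
Tinf2: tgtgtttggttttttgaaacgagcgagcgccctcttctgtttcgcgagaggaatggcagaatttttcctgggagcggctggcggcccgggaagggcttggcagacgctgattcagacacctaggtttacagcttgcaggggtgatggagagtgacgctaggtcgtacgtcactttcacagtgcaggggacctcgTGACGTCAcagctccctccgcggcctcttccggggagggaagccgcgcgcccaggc
Pcsk1: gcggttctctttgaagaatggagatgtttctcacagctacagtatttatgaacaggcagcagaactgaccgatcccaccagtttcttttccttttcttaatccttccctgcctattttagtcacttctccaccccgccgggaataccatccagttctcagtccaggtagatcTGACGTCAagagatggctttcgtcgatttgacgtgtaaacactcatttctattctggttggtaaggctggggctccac
Th: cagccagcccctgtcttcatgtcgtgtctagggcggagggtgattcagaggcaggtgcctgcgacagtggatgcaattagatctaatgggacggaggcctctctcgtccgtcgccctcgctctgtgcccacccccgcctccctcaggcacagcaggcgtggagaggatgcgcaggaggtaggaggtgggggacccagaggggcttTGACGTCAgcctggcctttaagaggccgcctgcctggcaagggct
Gpr6: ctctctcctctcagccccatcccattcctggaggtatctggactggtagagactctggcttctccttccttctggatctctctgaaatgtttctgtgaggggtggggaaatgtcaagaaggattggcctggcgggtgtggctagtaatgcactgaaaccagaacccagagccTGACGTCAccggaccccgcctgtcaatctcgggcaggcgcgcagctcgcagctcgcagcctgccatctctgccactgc
The palindrome started 58 bases before the gene start in Sstr2, 56 in Tinf2, 78 in Pcsk1, 45 in Th and 78 in Gpr6. Cartpt and Uqcrfs1 also held it in the 250 bases before the gene start. Of 134 named genes, 114 had a promoter entry. The list of named genes with it is partial, because a chromosome and sites found only after the gene start were left out of it. Windows of 300 bases (250 before and 50 after the gene start) were searched on both strands, and the palindrome reads the same on each. It was in 2.03% of 27025 genes with an entry and in 3.48% of the 10672 tested genes with one. Of 1339 genes called higher under the low dose with an entry, 5.97% held it, and of 1880 called lower 2.34%. The shorter CRE site TGACG, which lies within the palindrome, was in 34.7% of the tested genes, 43.5% of those higher and 31.3% of those lower. For the AP-1 site TGANTCA these shares were 6.09%, 6.57% and 5.85%. These matches describe letters in a window and were not tested.

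The purified RNA bore the label out. In mock mice the mean dSPN level of Drd1 was 11.80 ± 0.11 (SD, n = 10) on the log2 scale, against 10.07 ± 0.37 (n = 10) in iSPN. Eya1 was at 11.36 ± 0.24 in dSPN and 5.41 ± 0.78 in iSPN, and Isl1 at 9.67 ± 0.09 and 7.22 ± 0.46. Drd2 ran the other way, at 7.55 ± 0.31 in dSPN and 12.42 ± 0.18 in iSPN. Array medians lay between 4.31 and 4.42 across the series, and the median of an array's correlations with the other arrays of its group was at least 0.9695 for the low-dose and 0.9742 for the mock arrays. The title numbers form consecutive blocks, termed runs, in each of which animal numbers increase; the sources used here do not say what they stand for. Of the low-dose arrays, 11 lay in run 3 with 2 mock arrays and 1 lay in run 4 with 4 mock arrays, while the other 4 mock arrays lay in run 1. The lesioned dSPN arrays on saline lay in runs 1 and 2 and shared no run with the low-dose arrays. Of the high-dose dSPN arrays, 9 lay in run 2 and 2 in run 3.

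Low-dose dSPN differed from mock dSPN in many genes, in both directions. Of 13271 genes tested, 4004 differed from mock (limma, Benjamini-Hochberg adjusted p under 0.05, 30.2%), 1654 higher (12.5%) and 2350 lower (17.7%), and such genes are referred to as called. The difference was over 2-fold in 610, of which 331 were higher and 279 lower. For 616 genes (4.64%) the 12 low-dose and 10 mock arrays did not overlap at all, 369 of them higher and 247 lower. The lesion with saline, measured against the same mock arrays, gave 329 called genes (2.48%), 244 of them lower (1.84%). The median size of a difference from mock was 0.222 on the log2 scale under the low dose and 0.12 in the lesioned mice on saline. A p-value that misses the threshold does not place a gene at the mock level, so the 95% confidence interval was read as well. It lay within 0.5 log2 of mock on both sides for 5904 genes (44.5%) under the low dose, against 7870 (59.3%) in lesioned mice on saline. Of the 5904, 646 were also called, so their differences were measurable but small. For 4009 genes the difference was neither called nor bounded within 0.5. With the run as a block 2599 genes were called (1163 of them higher). Within run 3, fitted on its own arrays, there were 1110 (611 higher, 499 lower). All 4004 genes kept their direction with the run block, 2464 of them still called, and 3988 kept it within run 3. Of the named genes that were called, 70 were still called within run 3 and 54 were not.

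The genes that rose most were immediate early genes and other genes known to respond to neuronal activity, among others. Nr4a2, an orphan nuclear receptor made as an immediate early gene, ran from 4.27 to 6.52 (median 5.05) in mock arrays and from 8.63 to 10.71 (median 9.61) in low-dose arrays. Every low-dose array was above every mock array, and the difference was 4.33 (SE 0.27, limma adjusted p = 6.05e-23). The other probe sets of Nr4a2 differed by 2.76, 5.11, 5.53, 0.119 and 0.0698. Sstr2, a receptor for somatostatin, ran from 4.32 to 6.51 (median 5.83) in mock and from 9.24 to 10.53 (median 10.01) in low-dose arrays. The groups were again apart, by 4.28 (SE 0.27, limma adjusted p = 1.04e-22). Pcsk1, the convertase that cuts prohormones in neurons, ran from 4.45 to 6.87 (median 5.25) in mock and from 7.45 to 9.64 (median 8.87) in low-dose arrays. Its difference was 3.41 (SE 0.31, limma adjusted p = 1.04e-14), with a single low-dose array well below the others.

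The rest of the 15 highest rose by 3.22 to 4.07 and the groups did not overlap for any of them. Apold1, Mapkapk3, Ubash3b, Rgcc and Tinf2, a telomere protein, were higher by 4.07, 3.88, 3.22, 3.27 and 3.98. Ptgs2, the inducible prostaglandin synthase, was higher by 3.82 (limma adjusted p = 2.76e-24). Gpr3, a receptor that raises cyclic AMP without a known ligand, was higher by 3.63, and Shisa2 by 3.67. Inhba, a subunit of activin, was higher by 3.56. The AP-1 subunits Fosl2 and Fosb were higher by 3.44 and 3.39 and the orphan receptor Nr4a3 by 3.94. The value of Mapkapk3 moved with the run, with a difference of 1.77 within run 3 (limma adjusted p = 0.025) against 3.88 over all arrays.

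**Figure D1:**
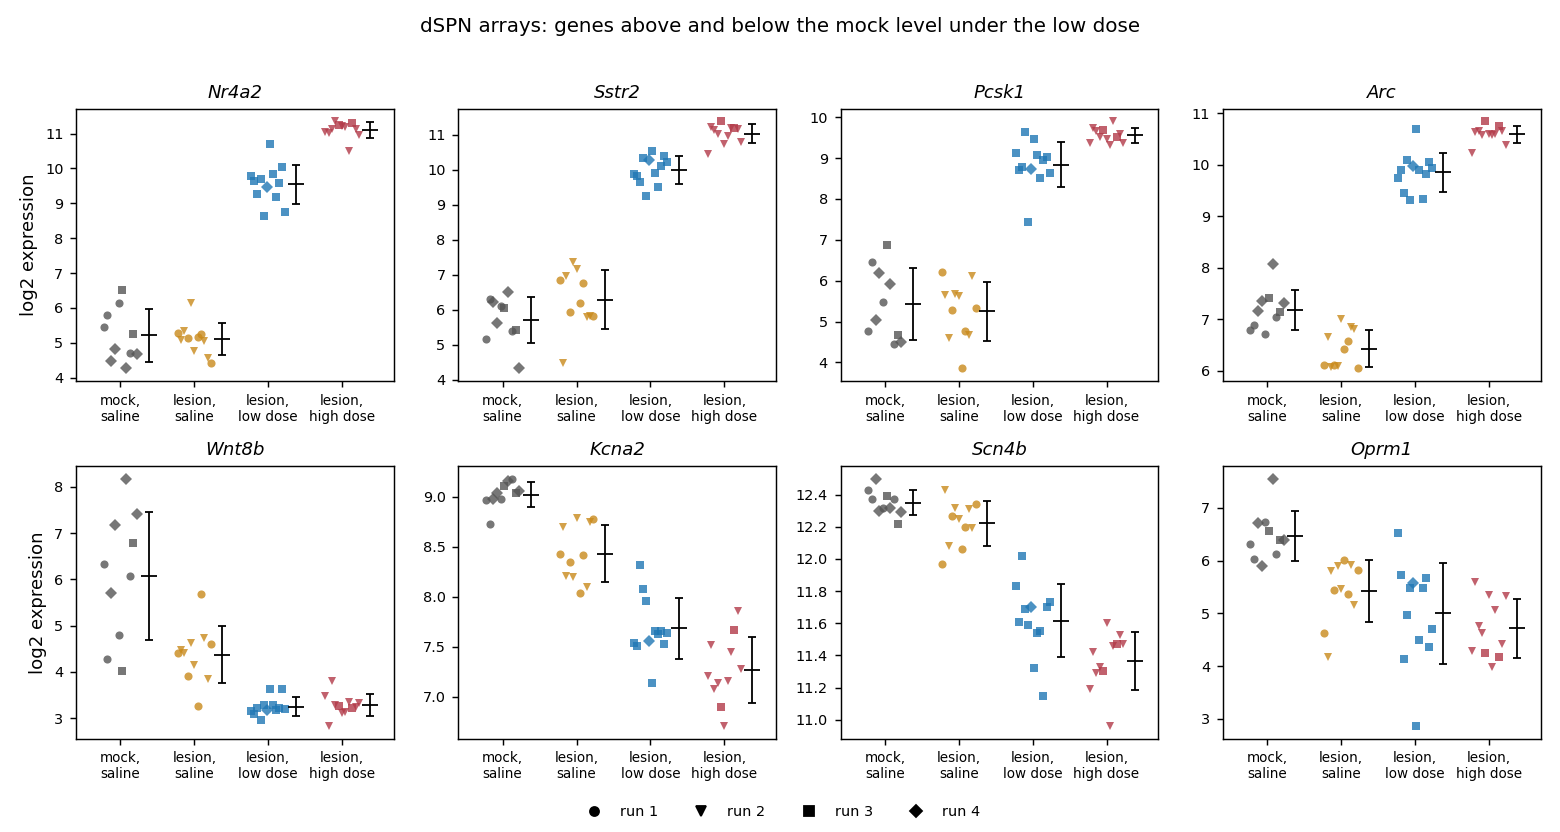
Log2 expression of 8 genes in each dSPN array (points), by group on the horizontal axis, with the run as marker shape and the group mean ± SD in black (n = 10 mock, 11 lesion with saline, 12 low dose, 11 high dose). In Nr4a2, Sstr2, Pcsk1 and Arc every low-dose array lies above every mock array, and in Wnt8b, Kcna2 and Scn4b every one lies below.

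Immediate early genes as a list stood above the mock level. Of 35 measured members 32 were higher and none lower at the called threshold, where 12.5% of all genes were higher and 17.7% lower. The median difference was 1.85 against -0.0374 over all genes tested. The members not called were Ier2 (0.09), Npas4 (0.12) and Klf6 (0.23), named here after their values were seen. In lesioned mice on saline none was higher and 6 were lower than in mock mice, where 1.84% of all genes were lower. Arc, which regulates AMPA receptors at synapses, ran from 6.72 to 8.07 (median 7.15) in mock and from 9.32 to 10.70 (median 9.90) in low-dose arrays. The groups were apart by 2.67 (SE 0.18, limma adjusted p = 1.66e-20), while lesioned mice on saline lay between 6.04 and 7.00. Fos ran from 3.74 to 6.60 (median 5.28) in mock and from 5.58 to 9.15 (median 7.13) in low-dose arrays, so that the groups overlapped, with a difference of 2.06 (SE 0.39, limma adjusted p = 1.64e-05). Nr4a1 was higher by 1.85 and Egr1, a zinc-finger factor, by 0.56 (SE 0.08, limma adjusted p = 1.06e-07). Junb was higher by 0.44 (limma adjusted p = 7.45e-04), with overlapping arrays. Of the 11 high-dose arrays, 9 lay in run 2, which holds no low-dose array. Over all genes, the calls of high minus low dose went from 903 to 174 with the run block. Without the block, 15 of the 35 members were higher under the high than the low dose and none lower, against 3.14% of all genes higher. Nr4a2 was higher by another 1.55, and for Egr1 and Egr2 the difference between doses was 0.00 (limma adjusted p = 0.996) and 0.02 (limma adjusted p = 0.98).

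Later activity-regulated genes followed. Of 29 measured, 22 were higher and none lower (median 1.60), with Gpr3, Inhba, Pcsk1 and Ubash3b leading. Over all genes 12.5% were higher and 17.7% lower. Homer1, a postsynaptic scaffold, was at 10.73 to 11.21 in mock and 11.93 to 12.73 in low-dose arrays, with no overlap and a difference of 1.42 (SE 0.09, limma adjusted p = 2.42e-21). Of its other probe sets, some differed by 2.89 and 2.94 and others by -0.309, -0.243 and -0.217, so the probe sets of Homer1 disagreed in direction. Crh, corticotropin-releasing hormone, was spread widely, from 1.58 to 6.28 in mock and from 2.58 to 8.36 in low-dose arrays. The groups overlapped and the difference was 2.98 (SE 0.63, limma adjusted p = 1.14e-04). Feedback regulators of the MAP kinases, which dampen ERK, were split: 11 of 23 were higher, 2 lower and the median was 0.259. The phosphatases Dusp14, Dusp4 and Dusp5 were higher by 2.62, 2.47 and 1.52, with no overlap between groups. Spred3, an inhibitor of Ras signalling, was lower by -1.33 (SE 0.27, limma adjusted p = 6.77e-05).

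Of 22 neuropeptide and granin genes measured, 10 were higher and 2 lower (median 0.372), where 12.5% of all genes were higher, and the other 10 were not called. Pdyn, which encodes the dynorphins made by dSPN, ran from 8.94 to 9.93 (median 9.68) in mock and from 10.31 to 11.12 (median 10.80) in low-dose arrays. The groups did not overlap and the difference was 1.21 (SE 0.22, limma adjusted p = 1.07e-05), whereas lesioned mice on saline ran from 8.41 to 9.84. Tac1, the substance P precursor of the same cells, ran from 11.41 to 11.98 in mock and from 11.45 to 11.95 in low-dose arrays. These ranges almost coincided, and the difference of 0.05 had an interval of -0.14 to 0.24 (limma adjusted p = 0.731), inside 0.5 log2 of mock. Penk, the enkephalin precursor best known from iSPN, was at 10.59 to 11.11 in mock and 11.26 to 11.68 in low-dose arrays, apart by 0.70 (SE 0.06, limma adjusted p = 7.27e-16). Cartpt, Nts and Crh were higher by 2.16, 1.69 and 2.98. Cartpt was higher by 1.00 within run 3 (limma adjusted p = 0.238). Th, the first enzyme of dopamine synthesis, ran from 3.15 to 4.59 (median 3.93) in mock and from 5.30 to 8.06 (median 6.13) in low-dose arrays. The groups did not overlap, with a difference of 2.26 (SE 0.26, limma adjusted p = 6.64e-11). Other markers of dopaminergic terminals, Slc18a2, Ddc and Aldh1a1, differed by 0.08, 0.26 and 0.22 and were not called.

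Wnt8b, the gene with the largest difference on the lower side, encodes a Wnt ligand and ran from 4.01 to 8.18 (median 6.19) in mock and from 2.95 to 3.63 (median 3.20) in low-dose arrays. The mock arrays were widely spread and still all above the low-dose ones, and the difference was -2.82 (SE 0.40, limma adjusted p = 3.86e-08). The low-dose median of Wnt8b lay below 3.55, the level that a gene's mean had to pass to be tested. Another probe set of Wnt8b above that level differed by -0.518. Zbtb46, a zinc-finger repressor, ran from 5.52 to 7.23 (median 6.13) in mock and from 3.11 to 4.71 (median 3.97) in low-dose arrays. The groups were apart by -2.31 (SE 0.21, limma adjusted p = 1.85e-14). Wnt7a, another Wnt ligand, was lower by -1.88 with no overlap, and Ddit4l, an inhibitor of mTOR signalling, by -1.84 with none. The other genes among the 15 lowest (Mir670hg, 2900026A02Rik, Igfbp5, Ccdc113, Fam117a, Ndnf, Kcng1, Sema4b, Col6a4, Ifi27l2a and Rflnb) ran from -2.44 to -1.71. Igfbp5, which binds insulin-like growth factors, was the least certain (-1.97, SE 0.52, limma adjusted p = 0.00187), with arrays from 3.61 to 7.76 under the low dose. With the glial covariate it was not called (-1.29, limma adjusted p = 0.0736). With the run block, the limma adjusted p of Fam117a was 0.083 and that of Sema4b 0.0721.

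Of 41 potassium channel genes measured, 18 were lower and 4 higher (median -0.292), where 17.7% of all genes were lower and 12.5% higher. Kcna2, a delayed rectifier subunit, ran from 8.73 to 9.18 (median 9.04) in mock and from 7.13 to 8.32 (median 7.63) in low-dose arrays. The groups did not overlap, with a difference of -1.34 (SE 0.12, limma adjusted p = 2.86e-15). Lesioned mice on saline ran from 8.03 to 8.79, a range that overlapped both groups. Kcng1, a modifying subunit, was lower by -1.82, Kcnj9, a channel opened by G proteins, by -1.23 and Kcnn2, a calcium-activated channel, by -1.06. Of 21 sodium and calcium channel genes, 11 were lower and 2 higher (median -0.339). Scn4b, a sodium channel beta subunit rich in striatum, ran from 12.22 to 12.50 in mock and from 11.15 to 12.02 in low-dose arrays. The groups were apart by -0.73 (SE 0.07, limma adjusted p = 3.57e-15), and the high dose was lower still by -0.25 (limma adjusted p = 0.00703). Most high-dose arrays lay in run 2, which holds no low-dose array. Cacna1e and Cacna1h, subunits of R-type and T-type calcium channels, were lower by -0.91 and -1.24.

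Receptor genes for the main transmitters were mixed. Of 38 genes for glutamate receptors and scaffolds, 10 were lower and 6 higher (median -0.08), shares near the 17.7% and 12.5% of all genes. Grik3, a kainate receptor subunit, and Grin2b, an NMDA receptor subunit, were lower by -1.38 and -0.97. The other probe set of Grik3 differed by -0.153. The metabotropic receptor Grm4 was higher by 0.97 (SE 0.14, limma adjusted p = 5.41e-08). Of 12 genes for GABA receptors and the inhibitory synapse, 7 were lower and none higher (median -0.363), and with the run block 3 were lower. Gabrd, the subunit of extrasynaptic GABA-A receptors, ran from 10.49 to 10.98 in mock and from 9.26 to 10.45 in low-dose arrays, apart by -0.96 (SE 0.13, limma adjusted p = 1.05e-08). Another probe set of Gabrd differed by 0.0407. Gabrb2, the adhesion protein Nlgn2 and the scaffold gephyrin (Gphn) were lower by -0.57, -0.49 and -0.44, the last with a limma adjusted p of 0.0784 under the run block.

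Within dopamine and cyclic AMP signalling, 17 of 44 genes were lower and 6 higher (median -0.119), where 17.7% of all genes were lower and 12.5% higher. The D1 receptor gene Drd1 ran from 11.63 to 11.93 in mock and from 11.11 to 11.71 in low-dose arrays. These ranges overlapped and the difference of -0.29 was not called (interval -0.54 to -0.03, limma adjusted p = 0.0781). Adcy5, the main adenylyl cyclase of these neurons, was lower by -0.64 (SE 0.08, limma adjusted p = 9.53e-11) with no overlap. Oprm1, the mu opioid receptor, ran from 5.89 to 7.55 in mock and from 2.86 to 6.51 in low-dose arrays. The groups overlapped, 1 low-dose array being far below the rest, and the difference was -1.47 (SE 0.28, limma adjusted p = 2.42e-05). The muscarinic receptors Chrm1 and Chrm4 were lower by -0.98 and -0.79. Htr1b, a serotonin receptor, was the receptor of this list that rose, at 9.70 to 10.68 in mock and 11.46 to 12.04 in low-dose arrays. Its difference was 1.58 (SE 0.10, limma adjusted p = 2.90e-21) with no overlap.

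Genes that mark neuron classes were split, where 12.5% of all genes were higher and 17.7% lower. Of 14 dSPN markers 3 were higher and 3 lower (median -0.246), led by Pdyn, Slc35d3 (-0.93) and Chrm4. Of 10 iSPN markers 4 were lower and 1 higher (median -0.463), namely Grik3, Gpr6 (-1.11), Drd2 (-0.90) and Gucy1a1 (-0.60) against Penk. Gucy1a1 was named after its value was seen. Of 19 markers shared by both neuron classes 11 were lower and 3 higher (median -0.146). Strn, a scaffold of the PP2A phosphatase, was lower by -0.75, the striatal G protein Rasd2 by -0.50, and Gad1, which makes GABA, was higher by 0.50.

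**Figure D2:**
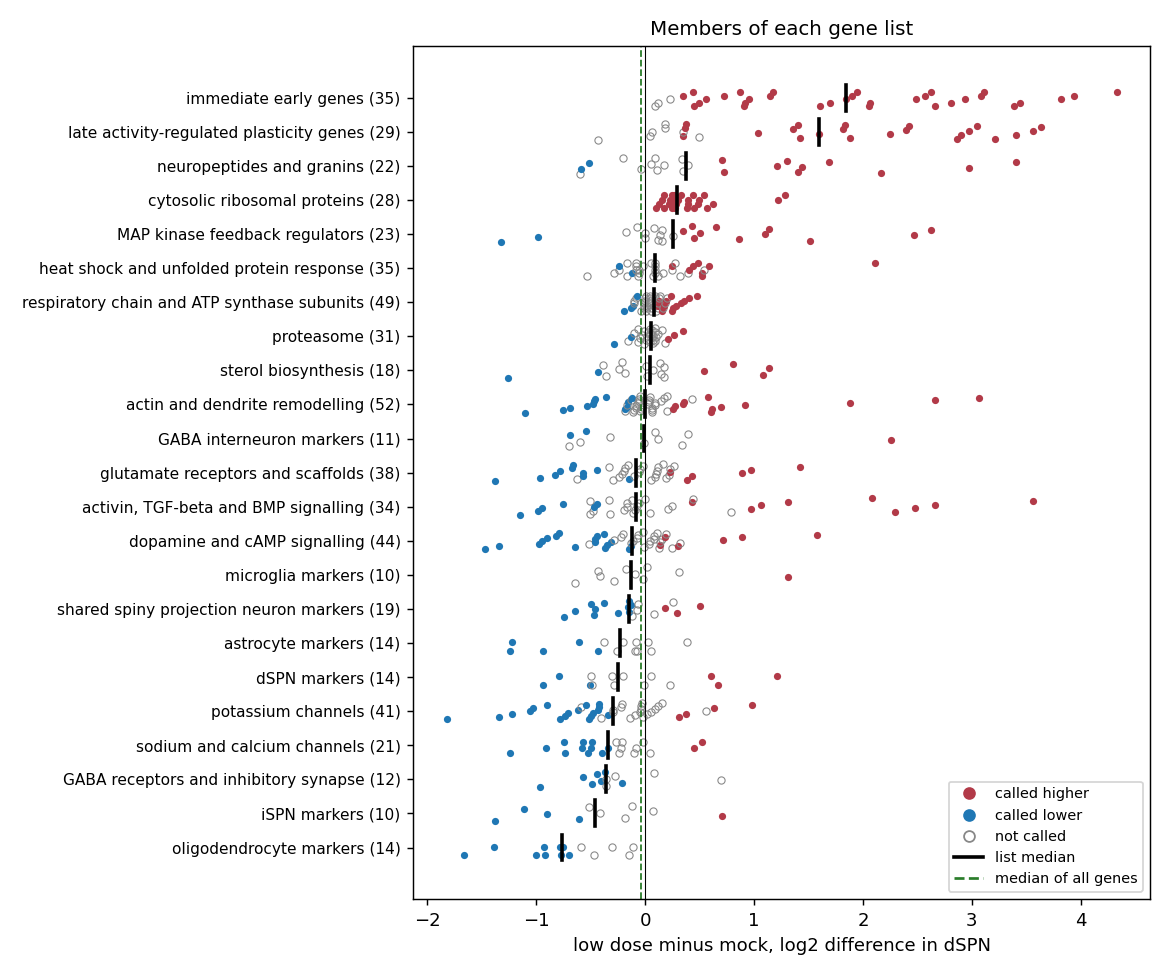
Difference between low-dose and mock dSPN (horizontal axis, log2) for each measured member of each gene list with 10 or more measured members, given in parentheses. Filled points are called (limma adjusted p under 0.05), open points are not, black bars are list medians, and the dashed line is the median of all 13271 genes. Immediate early genes reach a median of 1.85 and oligodendrocyte markers one of -0.763.

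Markers of glia were lower as well, where 17.7% of all genes were lower and 12.5% higher. Of 14 oligodendrocyte markers 9 were lower and none higher (median -0.763), and of 14 astrocyte markers 5 were lower and none higher (median -0.231). Mag, a myelin protein, ran from 4.66 to 7.31 (median 6.00) in mock and from 3.53 to 5.76 (median 4.38) in low-dose arrays, with a difference of -1.67 (SE 0.31, limma adjusted p = 1.26e-05). The mean of the oligodendrocyte list per array lay between 6.36 and 7.36 in mock and between 5.54 and 6.70 in low-dose arrays, so that the groups overlapped. Fewer glial cells, less RNA per cell and less carry-over into the purified fraction cannot be told apart in these bulk samples. Probe sets of some glial markers disagreed. The other probe sets of Slc1a2, a glutamate transporter, differed by -1.51, -0.72, -1.41 and 0.111, and those of Slc1a3, another one, by -1.16, -1.0 and 0.015. Those of the myelin gene Mobp differed by -0.31, -0.412, 0.0276 and 0.0332, against -1.0 for the one used. Of 10 microglia markers 1 was higher, Cd68 (1.31, limma adjusted p = 7.03e-09), and none lower, with Csf1r and Cx3cr1 at -0.29 and -0.02. With the mean of both glial lists as a covariate 3601 genes were called. Of the 4004 called without it, 3049 were still called and 4000 kept their direction. The part of glial RNA in the other gene groups was not tested beyond this covariate.

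**Figure D3:**
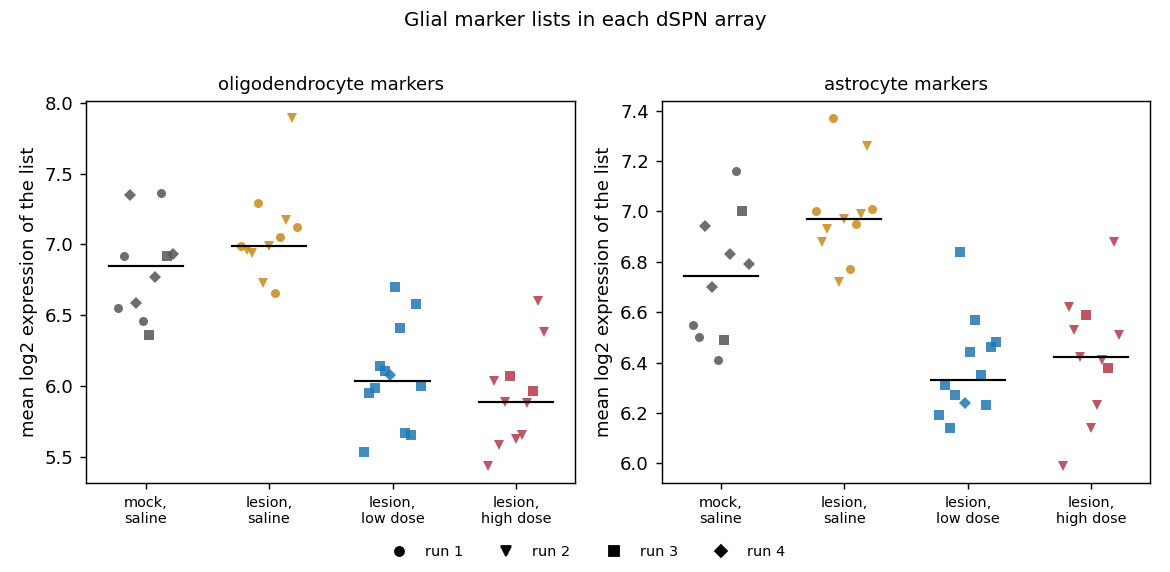
Mean log2 expression of 14 oligodendrocyte markers (left) and 14 astrocyte markers (right) in each dSPN array, by group, with the run as marker shape and the group median as a bar. The oligodendrocyte mean of the low-dose arrays spans 5.54 to 6.70 and that of the mock arrays 6.36 to 7.36.

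Median differences were small in the ribosomal protein, respiratory chain and proteasome lists. Of all genes, 12.5% were higher, 17.7% lower and 44.5% had an interval within 0.5 log2 of mock. All 28 measured cytosolic ribosomal protein genes were higher (median 0.295), and for 17 the interval lay within 0.5 log2 of mock. Rps7 was higher by 0.62 (SE 0.07, limma adjusted p = 7.00e-12) with no overlap of arrays, and Rpl14 and Rps25 by 1.29 and 1.22. Within run 3 Rpl14 differed by 0.779 (limma adjusted p = 0.141), and Rps25 was not called with the run block (0.717, limma adjusted p = 0.327). Within run 3 alone, 4 of the 28 were called higher. Of 49 respiratory chain and ATP synthase genes 47 had an interval within 0.5 log2 of mock, 13 being higher and 4 lower (median 0.0857). With the glial covariate 5 were higher and 4 lower. Of 31 proteasome genes 30 had an interval within 0.5 log2, 3 being higher and 2 lower. Heat shock and unfolded protein genes gave 8 higher and 2 lower of 35 (median 0.0893), with the cochaperone Dnajb5 far above the others at 2.11 (SE 0.12, limma adjusted p = 4.07e-24). Of 18 sterol synthesis genes 4 were higher and 2 lower: Pmvk and Sc5d rose by 1.08 and 1.14 and Lss fell by 1.26. Of 52 genes of actin and dendrite remodelling 12 were higher and 12 lower. With the run block 10 were higher and 4 lower, and with the glial covariate 10 and 7. Among them was Rnd3, which loosens actin fibres, higher by 3.07, while Arhgap32 was lower by -1.10. Of 34 genes of activin, TGF-beta and BMP signalling 9 were higher and 6 lower. The ligands Inhba, Tgfb1 (2.66) and Tgfb2 (2.30) led them, with Amhr2 (2.48), the receptor for anti-Müllerian hormone. Other probe sets above the filter differed by 0.244 for Tgfb1, by 0.851, 1.04 and 0.83 for Tgfb2, and by 3.91 and 0.713 for Amhr2.

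Genes that the lesion had changed most stood in several positions relative to mock. The 10 highest and 10 lowest were chosen on the difference between lesion with saline and mock. That difference shares the 10 mock arrays with the low-dose comparison, so the values are set side by side without a test of their relation. Genes chosen as lesion extremes can show a smaller low-dose difference from that choice alone. Low-dose arrays and lesioned arrays on saline also share no run. Over all genes, low dose minus lesion went from 4531 to 1847 calls with the run block. Vgf, a secreted peptide precursor, ran from 8.45 to 9.67 (median 9.15) in mock, from 6.42 to 8.69 (median 6.77) after lesion with saline, and from 8.77 to 9.81 (median 9.56) under the low dose. The low-dose range thus overlapped the mock range, reaching slightly above it, and lay above every lesioned array on saline. The difference from mock was -2.14 (SE 0.17) in the lesion and 0.35 (interval 0.01 to 0.69, limma adjusted p = 0.116) under the low dose. Ptges3l went from -1.95 in the lesion to 0.58 (limma adjusted p = 0.124), C030013G03Rik from -1.68 to 0.09 and Morc4 from 1.18 to 0.10. For these 3 genes the interval reached beyond 0.5, and the sign of the low-dose difference depended on the setting. Mcm6, a replication helicase subunit, went from 1.49 to -0.51 (interval -1.38 to 0.35).

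Some lesion genes passed the mock level. Nr4a3 ran from 6.29 to 8.67 (median 7.55) in mock, from 4.88 to 7.40 (median 5.57) after lesion with saline, and from 11.13 to 11.95 (median 11.37) under the low dose. It was thus below mock in the lesion by -1.61 and above every mock array under levodopa. Egr2, a zinc-finger factor, went from -1.74 in the lesion to 2.62 (SE 0.30, limma adjusted p = 2.77e-11). Nnat, outside these 20 but among the dSPN markers, went from -1.38 to 0.67 (limma adjusted p = 4.39e-04). Within run 3 its low-dose difference was 0.294 (limma adjusted p = 0.511).

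Other lesion genes lay near the lesioned level. Penk, a panel gene outside the lesion extremes, was above mock by 0.60 in the lesion and by 0.70 under the low dose. Its direct difference between low dose and lesion was 0.11 (limma adjusted p = 0.17). Sox11, a transcription factor of immature and injured neurons, was at 8.01 to 8.86 in mock, 8.27 to 10.45 after lesion and 8.99 to 9.91 under the low dose. Its difference from mock was 1.19 in the lesion and 1.08 (SE 0.18, limma adjusted p = 2.15e-06) under the low dose. Amhr2 was higher by 2.35 and 2.48, the activin antagonist Fst by 1.25 and 1.31, and 6820408C15Rik by 1.29 and 1.40. The other probe sets of Amhr2 differed by 3.65 and 0.6 in the lesion and by 3.91 and 0.713 under the low dose. Fst was higher by 0.44 within run 3 (limma adjusted p = 0.358) and 6820408C15Rik by 0.45 (limma adjusted p = 0.57). Ifi27l2a, an interferon-induced gene, was lower by -1.87 in the lesion and by -1.72 under the low dose, and Mir670hg by -2.17 and -2.44. Spred3 was lower by -1.23 and -1.33 and was named in the MAP kinase list.

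The remaining lesion genes differed from mock less, or more, under the low dose than in the lesion. Those with a smaller difference were chosen as lesion extremes, so a smaller value can follow from that choice. Whether they had returned part of the way was not tested. Marcksl1, a regulator of actin, was above mock by 1.69 in the lesion and by 0.69 (limma adjusted p = 0.0468) under the low dose, and Trp53i11 by 1.22 and 0.72. Fam126a was above by 1.13 and 0.55 and Dleu7 by 1.22 and 0.84 (limma adjusted p = 0.0617). Slc9a5, a sodium and proton exchanger, was below by -1.47 and -0.87, and Abcc12 by -1.41 and -0.75. With the run block Marcksl1 (limma adjusted p = 0.688), Trp53i11 (0.341), Fam126a (0.199) and Abcc12 (0.145) were not called. Marcksl1 also lost its call without any 1 of 10 of the 22 arrays, and its difference ran from 0.532 to 0.808 over all 22 omissions. Fam126a lost its call without mock array 4 or 44 or low-dose array 30 (title numbers), with differences from 0.484 to 0.599 over all omissions. Abcc12 lost it without any 1 of 6 arrays (30, 33, 35, 38, 41 and 44), with differences from -0.847 to -0.651 over all omissions. Dleu7 gained a call without array 26, 31 or 35, with differences from 0.745 to 0.940 over all omissions. Wnt8b and Zbtb46 were lower in the lesion by -1.70 and -1.08 and lower under the low dose by -2.82 and -2.31. Zbtb46 lay outside the lesion extremes. Both genes were named as among the lowest of low dose minus mock, so their lower values there follow from that choice. The direct low-dose minus lesion difference was -1.12 (limma adjusted p = 0.0201) for Wnt8b and -1.23 (limma adjusted p = 1.86e-06) for Zbtb46, between groups that share no run.

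**Figure D4:**
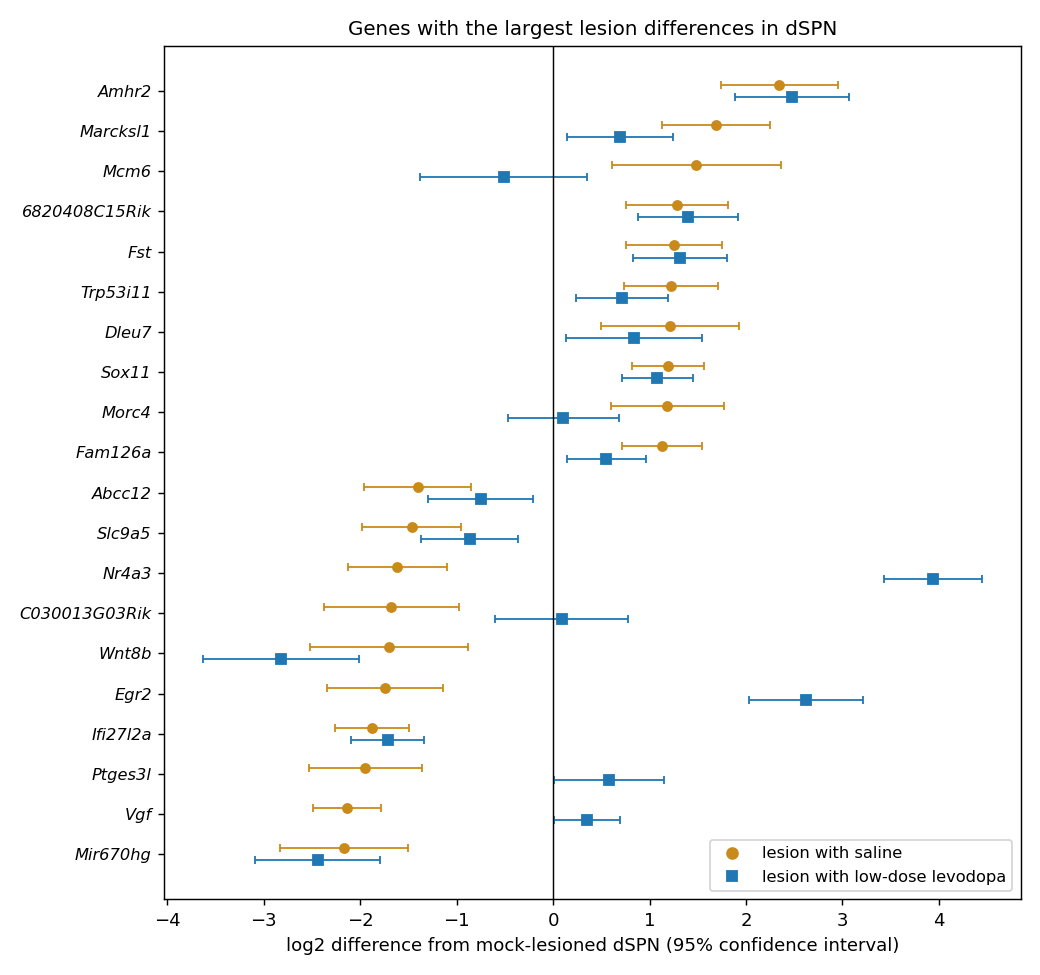
Log2 difference from mock-lesioned dSPN (horizontal axis) with its 95% confidence interval, for lesion with saline (circles) and lesion with low-dose levodopa (squares), for the 20 genes with the largest called lesion differences. Both differences share the 10 mock arrays. Vgf moves from -2.14 to 0.35, Nr4a3 from -1.61 to 3.94, and Amhr2 lies at 2.35 and 2.48.

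**Figure D5:**
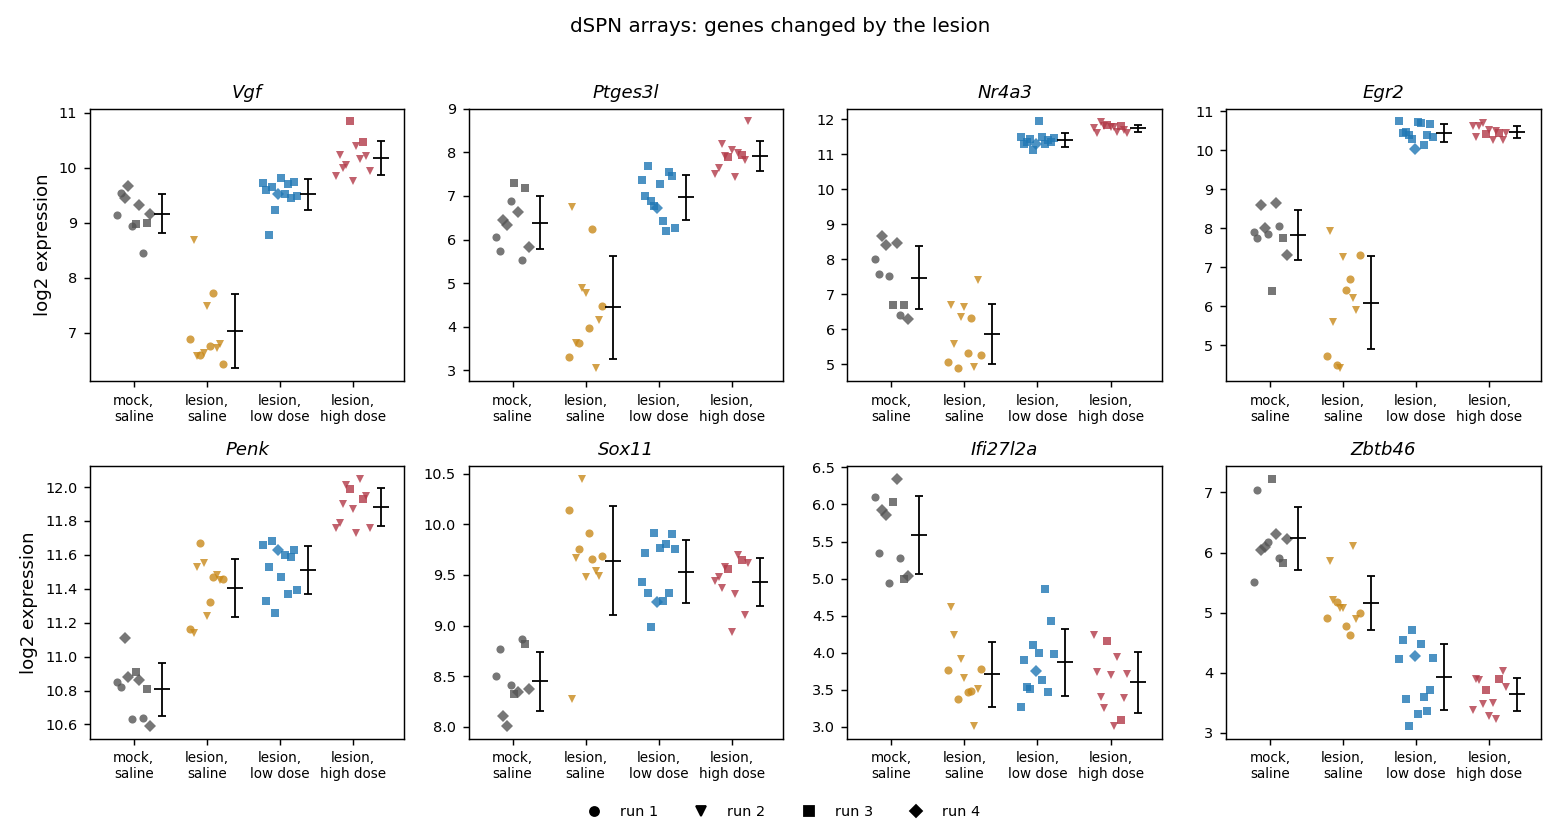
Log2 expression of 8 genes changed in the lesion, in each dSPN array (points) by group, with the run as marker shape and the group mean ± SD in black (n = 10, 11, 12 and 11). Low-dose arrays of Vgf and Ptges3l lie in or near the mock range, those of Nr4a3 and Egr2 above it, and those of Penk, Sox11 and Ifi27l2a beside the lesioned arrays on saline.

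The same contrast in iSPN was set against that in dSPN through an interaction term. In 1394 genes (10.5%) the low-dose minus mock difference was not the same in both classes. The iSPN low-dose and mock arrays share no run, so no run holds a direct comparison of them. A run block links them only through the 7 lesioned iSPN arrays on saline, and with it 97 genes were called. Pcsk1 was higher than mock by 3.41 in dSPN and differed by 0.09 in iSPN (limma adjusted p = 0.911), an interaction of 3.31 (limma adjusted p = 2.12e-07). Ptgs2 was higher by 3.82 in dSPN and 0.89 in iSPN, Tinf2 by 3.98 and 0.93, and Nr4a2 by 4.33 and 1.91. Serpinb2, an inhibitor of plasminogen activators, and Tes, a focal adhesion protein, were higher by 3.05 and 2.81 in dSPN, with iSPN differences of 0.39 and 0.36 that were not called. The mean of Serpinb2 over all arrays was 3.853, close to the 3.55 that a gene's mean had to pass to be tested. Mir670hg was lower by -2.44 in dSPN and higher by 1.63 in iSPN, the largest negative interaction (-4.07, limma adjusted p = 2.40e-09). Aard, Parp3 and Lamp2 followed at -2.65, -2.37 and -2.30. The low-dose minus mock difference of Lamp2 in dSPN was -1.47 for the probe set used and 0.181, 0.0832 and 0.158 for its others. Aard differed from mock by -0.27 (limma adjusted p = 0.594) in dSPN and was higher by 2.38 in iSPN. Mapkapk3 (3.88 and 3.64) and Cartpt (2.16 and 2.77) were raised in both classes, and their interactions of 0.24 and -0.61 were not called.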

How the data were processed

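Affymetrix Mouse 430 2.0 arrays were hybridised with amplified TRAP RNA, 1 mouse per array. The deposited values are log2 expression of 45101 probe sets on 77 arrays, made by the authors with RMA (affy) per the submitters' processing notes, version not given in the sources used here. RMA subtracts background and equalises distributions across arrays, so a shift of all genes cannot be seen. Detection calls and scanner output were not analysed here.

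Of the 34958 probe sets with a single symbol, the one of highest mean stood for each gene. Genes whose mean was above the 40th percentile of probe set means were tested, 13271 in all. limma 3.58.1 in R 4.3.3 was fitted to all 77 arrays in 8 groups, with Benjamini-Hochberg adjustment over all genes tested, and called means an adjusted p under 0.05. On simulated data of this comparison over 13271 genes, 44% of changes of 0.5 log2 and 88% of changes of 1 log2 were called, with 10 false calls. The simulation changed only a small share of the genes, drew independent noise and held no run differences. Its rates therefore do not carry over to the real comparison. Nothing in the labels beyond the single mice describes independent cohorts, so p-values measure the spread between these animals. The number of arrays limits the precision, and a fold on RMA values understates large changes of dim probe sets.

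Named genes were the 15 highest and 15 lowest of low dose minus mock, a panel of 12 genes, up to 4 called members of each list with the largest changes, the 10 highest and 10 lowest of lesion minus mock, and the 8 highest and 8 lowest interactions. Other members of a list are named where the text says so or to account for the list. Members and lists were chosen with earlier results of these data known. Alternatives were the run as a block, fits within a run, other sets of arrays, array weights, other filters, the mean of probe sets, repeated quantile normalization, a glial covariate, and each array left out.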

Additional observations from a re-analysis of the deposited data

Results flagged for a closer look

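In 12 of 134 named genes 1 mock array stood apart from the other 9 by Dixon's criterion, which marks about 5% of groups by chance. Among them Arc was highest at 8.071 and Oprm1 at 7.554 in the array with title number 43, the next arrays being at 7.412 and 6.739. In array 6 Reln was highest at 10.82, while Kcna2 was lowest at 8.731 and Tgfb2 at 3.132. In array 29 6820408C15Rik was highest at 6.809 and Ddit4l lowest at 8.309. Array 3 was lowest for Kcnc1 at 6.729 and for Slc1a2 at 7.783, array 4 for Cd68 at 7.785 and Rps7 at 10.52, and array 42 for Psmd12 at 9.603.

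In 65 named genes the low-dose minus mock difference was not the same in dSPN and iSPN (limma interaction, Benjamini-Hochberg adjusted p under 0.05), 36 with a higher and 29 with a lower difference in dSPN. Of all genes 10.5% were called in this test, and 16 of the 134 named genes had been chosen as its extremes. Many others had been chosen on low dose minus mock in dSPN, which is itself a part of the interaction. The 65 can therefore not be read against the 10.5%. With the run as a block the calls over all genes went from 1394 to 97. The values below are the dSPN difference minus the iSPN difference, on the log2 scale. Among transcription factors and early genes it was positive for Nr4a2 (2.43), Nr4a3 (2.29), Fosb (1.59), Fosl2 (1.63), Egr1 (0.83), Egr2 (1.87), Arc (1.36) and Apold1 (2.53). Later activity-regulated and signalling genes were Pcsk1 (3.31), Ptgs2 (2.93), Ubash3b (2.69), Serpinb2 (2.66), Tes (2.44), Homer1 (1.02), Nrp1 (2.36), Rgcc (2.09), Shisa2 (2.21) and Tinf2 (3.05). Phosphatases, a cochaperone and an actin regulator were Dusp14 (1.95), Dusp4 (1.72), Dnajb5 (1.78) and Rnd3 (1.77). Receptors, peptides and growth factor genes were Sstr2 (2.05), Htr1b (0.97), Grm4 (0.88), Penk (0.67), Tgfb1 (2.08) and Fst (1.32). The remaining positive values were Dleu7 (2.21), 6820408C15Rik (1.39), Trp53i11 (1.27), Rpl14 (1.03), Rps7 (0.38), Cd68 (0.92), Idi1 (0.70) and Pmvk (0.60).

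The difference was negative for the channel genes Kcna2 (-1.04), Kcnj9 (-1.23), Kcnn2 (-1.16), Cacna1h (-1.08), Cacna1e (-0.45), Scn4b (-0.44) and Hvcn1 (-1.89). In synaptic and striatal signalling genes it was negative for Gphn (-0.79), Gpr6 (-0.95), Adcy5 (-0.36), Strn (-0.67), Rasd2 (-0.61) and Reln (-0.996). Genes of metabolism, lysosome and transport were Lamp2 (-2.30), Lss (-1.07), Ugt8a (-1.37), Slc9a5 (-1.26) and Parp3 (-2.37). The others were Mir670hg (-4.07), Aard (-2.65), Ccdc113 (-2.24), AA986860 (-2.04), Zbtb46 (-1.91), 2900026A02Rik (-1.60), Ifi27l2a (-1.57), C030013G03Rik (-1.56), Fam117a (-1.55), Ddit4l (-1.09) and Rflnb (-1.01).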

How the results depend on the processing

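The count of 4004 genes called in low dose minus mock became 2599 with the run as a fixed block, 1110 within title numbers 26 to 40, 339 within 41 to 45 and 610 at over 1 log2. The share of higher calls was 41.3% over all arrays and 55% within 26 to 40. Lesion minus mock, with 329 calls, gave 88 with the run block, 554 with dSPN arrays only and 776 with array weights. Low dose minus lesion, with 4531, gave 1847 with the run block. High minus low dose, with 903, gave 174 with the run block and 1375 with array weights. The interaction, with 1394, gave 97 with the run block. The 5904 genes within 0.5 log2 of mock became 10231 with no filter, where dim genes enter, 2688 within 26 to 40, 822 within 41 to 45, and 11129 with a margin of 1 log2. Apart from the fit within 41 to 45, each other alternative left these counts within 1.5 times. Leaving out 1 array in turn gave 3779 to 4012 for low dose minus mock, 250 to 351 for lesion minus mock, 4303 to 4546 for low dose minus lesion, 707 to 1012 for high minus low, 1277 to 1413 for the interaction and 5688 to 5842 within 0.5 log2. Among named genes the sign turned for Morc4 (-0.281 with the run block, -0.215 within 26 to 40, -1.25 within 41 to 45), for Tac1 (-0.0121) and C030013G03Rik (-0.271) with the glial covariate, for Ptges3l (-0.243) and Parp3 (0.0066) within 26 to 40, and for Fam117a (0.172), Mcm6 (0.211) and C030013G03Rik (-0.713) within 41 to 45. Rapgef3 lost its call without any 1 of 12 arrays (-1.52 to -1.09 over all 22 omissions), Psmd8 without any 1 of 14 (0.220 to 0.315 likewise) and Psmd12 without 30, 32, 35 or 42 (0.177 to 0.241 likewise). The within-run fits rest on few mock arrays or 1 low-dose array, and the cause of the other shifts was not tested. No paired analysis was possible because title numbers are unique to each array and pair no samples across groups.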
